A study of Mus musculus with 3 samples.

Results

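The neuron nuclei of differentiated neurosphere cultures were 351 of 12549 deposited nuclei, chosen by the unique molecular identifiers (UMIs, counted RNA molecules) that each nucleus held of a few marker genes. A nucleus was taken when Rbfox3, Dcx, Gad2 and Dlx6os1 together gave at least 3 UMIs. It was left out when the oligodendrocyte genes Mog, Mag, Mobp and Ermn gave 4 or more, when the microglial genes Inpp5d, Ptprc, Fyb and Adgre1 gave 3 or more, or when the cell cycle genes Top2a, Mki67, Kif11 and Knl1 gave 3 or more. Single-nucleus RNA was deposited as 1 control, 1 CBP-ablated and 1 p300-ablated library. Neural stem cells came from the subventricular zone of newborn Crebbp f/f or Ep300 f/f pups of C57BL/6 background, and the floxed gene was removed by a lentivirus carrying Cre fused to mCherry, whereas control cells received a lentivirus for a red fluorescent protein. The line of mice behind the control library is not stated, and the labels of all 3 libraries name tamoxifen as the treatment while the methods describe the virus. Clonal secondary neurospheres were differentiated to day 15, about 15 cultures were pooled into each library, and 16000 sorted nuclei were loaded. Neurons of a library may therefore descend from few founder cells, and with 1 library per condition no test between conditions was possible. Ranges in parentheses are 95% intervals for counting error only. They are exact Poisson intervals around levels, Clopper-Pearson intervals around shares, Newcombe intervals around differences between shares, and conditional binomial intervals around ratios.

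Stem cells of the postnatal subventricular zone give rise to neuroblasts, most of which migrate to the olfactory bulb and become interneurons that release the inhibitory transmitter GABA. These neuroblasts carry the microtubule protein doublecortin (Dcx), and their GABAergic identity is set by the Dlx homeobox factors together with Meis2, Pbx and Sp factors. The enzymes Gad1 and Gad2 make GABA and Slc32a1 loads it into vesicles, while the splicing factor Rbfox3 (NeuN) marks neurons as they mature. CBP and p300, encoded by Crebbp and Ep300, are paralogous acetyltransferases that act as transcriptional coactivators.

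All 4 genes of the rule contributed nuclei, and Dcx contributed most. Dcx (chromosome X from 143855842 to 143933311, GRCm38) had a UMI in 260 of the 351 nuclei, Rbfox3 in 196, Dlx6os1, the long noncoding RNA of the Dlx5 and Dlx6 locus, in 181, and Gad2 in 163. Of the nuclei, 83 held UMIs of 1 of these genes, 126 of 2, 103 of 3 and 39 of all 4, and 55 passed on Dcx alone. The exclusions removed few nuclei, since 365 reached 3 UMIs, 8 of them were lost by the oligodendrocyte genes, 6 by the cell cycle genes and 0 by the microglial genes. Just inside the threshold lay 117 nuclei with 3 UMIs, and just outside lay 300 nuclei with 2. Adarb2, which encodes an RNA-editing family protein and was not in the rule, stood at 1526 CPM (a gene's UMIs scaled to the total UMIs of the same nuclei, as for every level below) in the nuclei with 2 UMIs, 3262 CPM in those with 3, 4656 CPM in those with 4 and 6888 CPM in those with 5 or more. The receptor Pdgfra, a marker of oligodendrocyte precursors, took the opposite order with 538, 386, 275 and 95.9 CPM. A UMI of Pdgfra was found in 63.3%, 47.9%, 32.8% and 10.8% of these nuclei. The summed levels thus changed step by step across the threshold. Sums cannot show whether single nuclei form a graded series or a mixture of kinds, and this was not tested.

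Clustering of the 351 nuclei gave 7 subgroups, named here by their leading genes, and 2 of them went against the name neuron. The largest, of 100 nuclei, was led by Megf11, Xylt1, Pdgfra and Lhfpl3, with 14997 CPM over the 8 oligodendrocyte precursor markers against 604 to 986 CPM in the other subgroups apart from the smallest, which had 7921 CPM. Adarb2 stood at 1629 CPM and Gad1 at 19.9 CPM in these nuclei, while Dcx, at 417 CPM, lay within the range of the 5 remaining subgroups below (279 to 680.2 CPM). Dcx is a gene of the rule, so the choice of nuclei itself raised its level in every subgroup, and this likeness is only a description. The smallest, of 8 nuclei, was led by Tmem163, Epb41l2, Enpp6 and Tcf7l2 and held 4853 CPM of Bcas1, an early oligodendrocyte gene. These subgroups are called glial-led below, 13 of their nuclei were called doublets by Scrublet, and most results below are given with and without these subgroups. The remaining 243 nuclei, in 5 subgroups, had 11340 CPM over Adarb2, Cpne4 and Celf4, the 3 neuron markers that the rule did not use, against 545 CPM in all nuclei outside the rule.

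**Figure D1:**
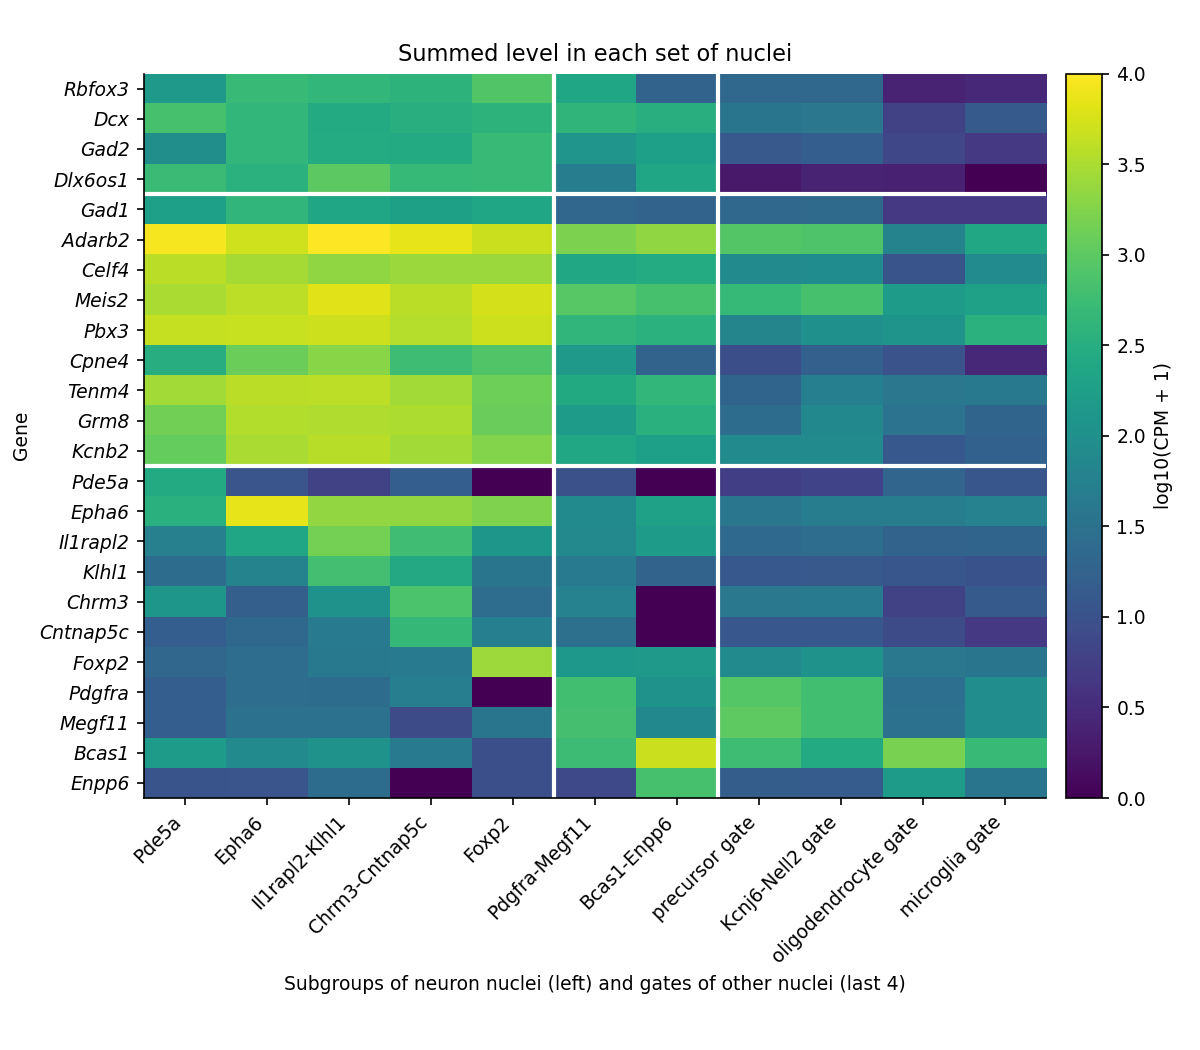
Summed level of 24 genes, as log10 of CPM plus 1, in the 7 subgroups of neuron nuclei (5 neuronal and 2 glial-led, split by white lines) and in 4 gates of other nuclei; the top 4 genes are those of the rule. Adarb2, Celf4, Meis2 and Pbx3 are high in the 5 neuronal subgroups, and Pdgfra and Megf11 are high in the Pdgfra-Megf11 subgroup and in the oligodendrocyte precursor gate.

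Crebbp and Ep300 were measured at close levels in the neuron nuclei of all 3 libraries. Crebbp (chromosome 16 from 4081328 to 4213997) stood at 297 CPM in control (247 to 355, 123 UMIs), 300.4 CPM in the CBP-ablated library (254 to 353, 146 UMIs) and 326 CPM in the p300-ablated library (276 to 383, 149 UMIs). Ep300 (chromosome 15 from 81585351 to 81652077) stood at 114 CPM (83.5 to 151), 136 CPM (105 to 173) and 101 CPM (73.8 to 134). The sums are over whole genes, so they do not check the removal of the floxed exons, and the RNA of the removed exon was not analysed here.

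The share of neuron nuclei was larger in the CBP-ablated library than in the other libraries. It was 2.27% in control (111 of 4884 nuclei, 1.87% to 2.73%), 4.34% in the CBP-ablated library (131 of 3017, 3.64% to 5.13%) and 2.35% in the p300-ablated library (109 of 4648, 1.93% to 2.82%). The CBP-ablated library stood 2.07 points above control (1.26 to 2.94), and the p300-ablated library 0.072 points above it (−0.53 to 0.68). Without the glial-led subgroups the shares were 1.37% (67 nuclei), 3.71% (112 nuclei) and 1.38% (64 nuclei), and the differences from control were 2.34 points (1.62 to 3.13) and 0.0051 points (−0.47 to 0.48). The interval for the CBP-ablated library did not overlap either of the others, with or without these subgroups.

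**Figure D2:**
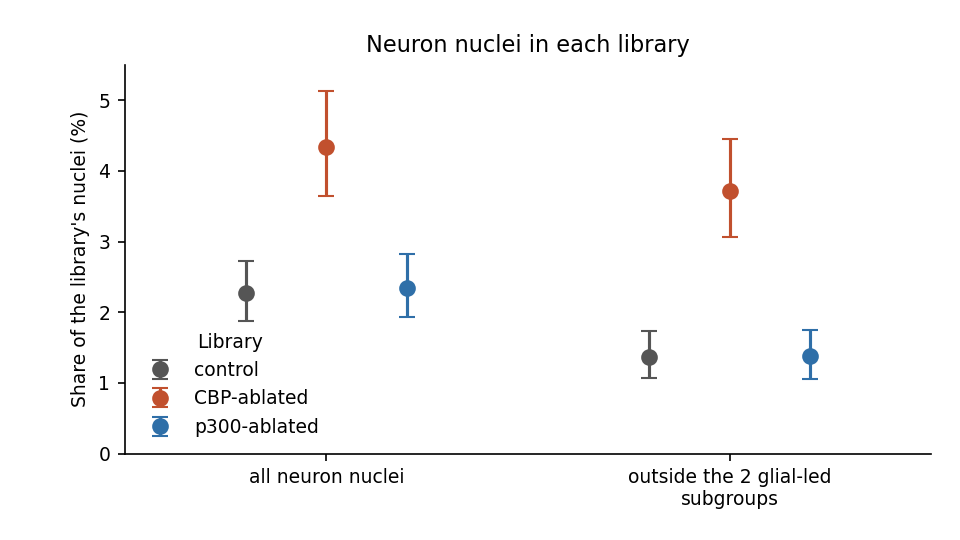
Share of each library's nuclei that met the rule (left) and that lay outside the 2 glial-led subgroups (right), in percent, with Clopper-Pearson 95% intervals for counting error. The CBP-ablated points, at 4.34% and 3.71%, lie above the intervals of control and of the p300-ablated library.

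Depth and composition differed between the libraries. Median depth was lower in control nuclei (3219 UMIs) than in CBP-ablated (4016 UMIs) or p300-ablated nuclei (3902.5 UMIs). After thinning every nucleus to 1500 UMIs, 0.884% of 4636 control nuclei met the rule, against 1.64% of 2922 in the CBP-ablated and 0.709% of 4513 in the p300-ablated library, so the order of the CBP-ablated library and control was kept. The CBP-ablated library then stood 0.758 points above control (0.25 to 1.34). When nuclei with 15 or more UMIs of the astrocyte genes Slc7a11, Slc1a2 and Gpc5 were left out of the totals, the shares were 2.90%, 4.40% and 2.46%, and the CBP-ablated library stood 1.49 points above control (0.58 to 2.44). No cell barcode was shared among the neuron nuclei of different libraries. A larger share cannot be told apart from the loss of other cells, from the founder cells that entered each pool, or from sorting.

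Outside the glial-led subgroups the nuclei carried GABAergic genes and almost no marker of another transmitter. A UMI of Gad1 or Slc32a1, which the rule did not use, was found in 136 of 243 nuclei (56.0%), and in 59.7%, 52.7% and 57.8% of the nuclei from control, the CBP-ablated and the p300-ablated library. In the microglia gate, which should lack these genes, it was found in 1 of 258 nuclei (0.388%), at a median of 1535.5 UMIs against 3354. Slc32a1 by itself had 2 to 7 UMIs in each of the 5 neuronal subgroups and 0 in the glial-led ones, so most of the 136 nuclei were found by Gad1. Over all neuron nuclei 4 of the 5 GABA synthesis and release genes reached 20 UMIs, and Slc32a1 did not. A vesicular glutamate transporter had a UMI in 1 of the 243 nuclei. Of 13 glutamatergic markers 10 had no UMI in any of the 351 nuclei and none reached 20 UMIs, and none of 11 markers of cholinergic, monoaminergic and glycinergic neurons reached 20. Th, which makes dopamine in some olfactory bulb interneurons, had 0 UMIs in all 3 libraries, which allows up to 7.25, 6.17 and 6.57 CPM in control, CBP-ablated and p300-ablated neuron nuclei.

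Genes outside the rule set these nuclei apart from the other 12198 nuclei of the cultures. Of 7021 genes with at least 20 UMIs, 648 (9.23%) were at least 2-fold higher in neuron nuclei and 463 (6.59%) at least 2-fold lower. Among genes with symbols of their own and at least 100 UMIs, the largest ratios were those of Slc35f4, a solute carrier family member, at 72.9-fold (62.2 to 85.7), Cacng2 (stargazin, an AMPA receptor auxiliary subunit) at 57.6-fold (44.6 to 74.6) and Cpne4, a calcium-dependent membrane-binding protein of olfactory bulb interneurons, at 52.1-fold (47.0 to 57.8). The adhesion proteins Cdh8 and Tenm4 had 39.3- and 33.2-fold, the metabotropic glutamate receptor Grm8 32.2-fold, the potassium channel Kcnb2 28.9-fold, the splicing factor Celf4 28.5-fold and the ephrin receptor Epha6 27.8-fold higher levels. Pbx3, a homeobox factor of the ventral forebrain, reached 26.4-fold and Adarb2 11.4-fold. A UMI of Celf4 was found in 77.8% of neuron nuclei and 3.1% of microglia-gate nuclei, and one of Adarb2 in 92.3% and 17.1%, at median depths of 3573 and 1535.5 UMIs. In the 300 nuclei just below the threshold, at a median of 3807.5 UMIs, Celf4 had a UMI in 28% and Adarb2 in 71.7%. Of the 100 Pdgfra-Megf11 nuclei 30 held Celf4 and 83 held Adarb2, so detection of Adarb2 separated the nuclei less than its level did.

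Among the larger gene lists, the Dlx network and the sodium and calcium channels had the highest shares of genes above other nuclei. Of the Dlx network and ventral forebrain factors 14 of 20 had at least 20 UMIs and 11 were at least 2-fold higher, with Sp9 at 38.2-fold and Dlx1 at 47.0-fold. Of the voltage-gated sodium and calcium channels 11 of 15 were 2-fold higher, of the axon guidance and migration genes 13 of 21, of the mature neuron genes 10 of 15, of the immature neuron genes 9 of 15 of the potassium channels 9 of 20 and of the presynaptic vesicle release genes 5 of 15. Genes of the rule count in 3 of these lists, and without them the Dlx network had 10 of 13, the mature neuron genes 9 of 14 and the immature neuron genes 8 of 14. Markers of interneurons from the medial ganglionic eminence were nearly absent, with 1 of 11 genes at 20 UMIs and a sum of 87.0 CPM, beside 92.9 CPM in other nuclei. Of 14 caudal ganglionic eminence markers only 3 reached 20 UMIs and 4 had no UMI, and Adarb2 gave most of their sum. Of 16 olfactory bulb interneuron markers 10 reached 20 UMIs, with 6 at least 2-fold higher, and 4 had no UMI. Per kb of gene span the highest members of their lists were Meis2 (15.8 CPM per kb), Sox4 (31.4 CPM per kb) and Gria2 (10.2 CPM per kb), a subunit of AMPA receptors whose total level was not above that of other nuclei (0.948-fold).

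The 5 neuronal subgroups shared the ventral forebrain genes, with 15000 to 21705 CPM over the Dlx network list without Dlx6os1 against 4755 CPM in the Pdgfra-Megf11 subgroup, and differed in their leading genes. Genes that led a subgroup were used to form it and are given as a description. The same holds for Dcx, Gad2, Rbfox3 and Dlx6os1, whose sum chose the nuclei. A nucleus low in some of these genes could enter only by holding more of the others. The Pde5a subgroup (60 nuclei) had the highest Dcx, at 680.2 CPM, with Kcnmb2, Zfp804b and the semaphorin receptor Plxna4, and the lowest Gad2, at 93.7 CPM, and Rbfox3, at 138 CPM, of the 5 neuronal subgroups. The Epha6 subgroup (55 nuclei) had 6996 CPM of Epha6, the kainate receptor subunit Grik1 at 2342 CPM and the highest Gad1, at 426 CPM. The Il1rapl2-Klhl1 subgroup (55 nuclei) carried the synaptic adhesion gene Il1rapl2 at 1451 CPM, with the highest Dlx6os1 (964 CPM), Meis2 (6589 CPM) and Cpne4 (1928 CPM).

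The Foxp2 subgroup (36 nuclei) carried the transcription factor Foxp2 at 2570.5 CPM against 73.4 CPM in the other neuron nuclei, with the vesicle genes Cadps2 and Syt1, the channel subunit Kcnip4 at 3019 CPM and the highest level of the receptor Erbb4 (16389 CPM). It also had the highest sum over the striatal projection neuron list, at 3692 CPM, to which Foxp2 itself contributed 2570.5 CPM. The Il1rapl2-Klhl1 and Epha6 subgroups had 1664 and 1536 CPM, of which Foxp2 gave 40.6 and 25.7 CPM. The rank thus rested on Foxp2, a gene that led the subgroup, and did not hold for the rest of the list. In the Chrm3-Cntnap5c subgroup (37 nuclei) some leading genes rested on few nuclei. Chrm3, a muscarinic acetylcholine receptor, had a UMI in 7 of the 37 and the NMDA receptor subunit Grin2a in 9, whereas Cntnap5c had one in 15 and Hs3st4 in 22. This subgroup had the highest level of the splicing factor Rbfox1 (7254 CPM). It also had the highest sum over the mature neuron genes (16368 CPM), a list that holds Rbfox1. Without Rbfox1 and the rule gene Rbfox3 the sum was 8730 CPM, below the 10566 CPM of the Foxp2 and the 9426 CPM of the Epha6 subgroup. Without Gad2, a gene of the rule, the GABA synthesis and release list lay between 543 and 914 CPM in the 5 subgroups, against 290.3 CPM in the Pdgfra-Megf11 subgroup.

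The libraries filled the subgroups unevenly. In the 3 libraries, in the order control, CBP-ablated and p300-ablated, the Il1rapl2-Klhl1 subgroup had 10, 43 and 2 nuclei, or 9.01% (4.41% to 15.9%), 32.8% (24.9% to 41.6%) and 1.83% (0.22% to 6.47%) of the neuron nuclei. The Epha6 subgroup held 8, 18 and 29 nuclei (7.21%, 13.7% and 26.6%), and the Foxp2 subgroup 18, 15 and 3 nuclei (16.2%, 11.5% and 2.75%). As shares of the nuclei outside the glial-led subgroups, in the same order, the Il1rapl2-Klhl1 subgroup made up 14.9%, 38.4% and 3.12%, the Epha6 subgroup 11.9%, 16.1% and 45.3%, the Foxp2 subgroup 26.9%, 13.4% and 4.69%, and the Chrm3-Cntnap5c subgroup 22.4%, 6.25% and 23.4%. The Pde5a subgroup was filled more evenly, with 16, 29 and 15 nuclei (14.4%, 22.1% and 13.8%), and the Chrm3-Cntnap5c subgroup held 15, 7 and 15 nuclei. The largest part of the CBP-ablated excess lay in the Il1rapl2-Klhl1 subgroup, which made up 1.43% of all CBP-ablated nuclei against 0.205% of control nuclei, followed by the Pde5a subgroup with 0.961% against 0.328%. The Pdgfra-Megf11 nuclei numbered 39, 17 and 44, or 35.1%, 13.0% and 40.4% of the neuron nuclei. At a resolution of 1.0 the best match of the Il1rapl2-Klhl1 subgroup held 11, 41 and 2 nuclei, and with another seed 11, 40 and 3. At a resolution of 0.3 it was not separate. The best match of the Epha6 subgroup held 9, 19 and 29 nuclei at a resolution of 1.0, and 23, 28 and 37 with another seed. At a resolution of 0.3 it was a merged group of 140 nuclei with 35, 66 and 39, where the CBP-ablated library held the most. The p300-ablated excess in the Epha6 subgroup thus depended on the clustering. The Foxp2 subgroup kept all 36 nuclei at both resolutions and 24 with another seed. The Chrm3-Cntnap5c subgroup was less stable, with 25 of its 37 nuclei kept together at a resolution of 0.3, 24 at 1.0 and 25 with another seed, where its best match was the same group of 88 nuclei as that of the Epha6 subgroup. Of the 100 Pdgfra-Megf11 nuclei 54 stayed together at a resolution of 1.0. Of the 43 CBP-ablated nuclei in the Il1rapl2-Klhl1 subgroup 16 held Xist, the RNA of the inactive X chromosome, without UMIs of 4 Y-linked genes, 17 held Y-linked UMIs without Xist, 6 held both and 4 neither. The part of free RNA and doublets in these counts was not tested. A subgroup mostly of 1 library cannot be told apart from a property of that library.

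**Figure D3:**
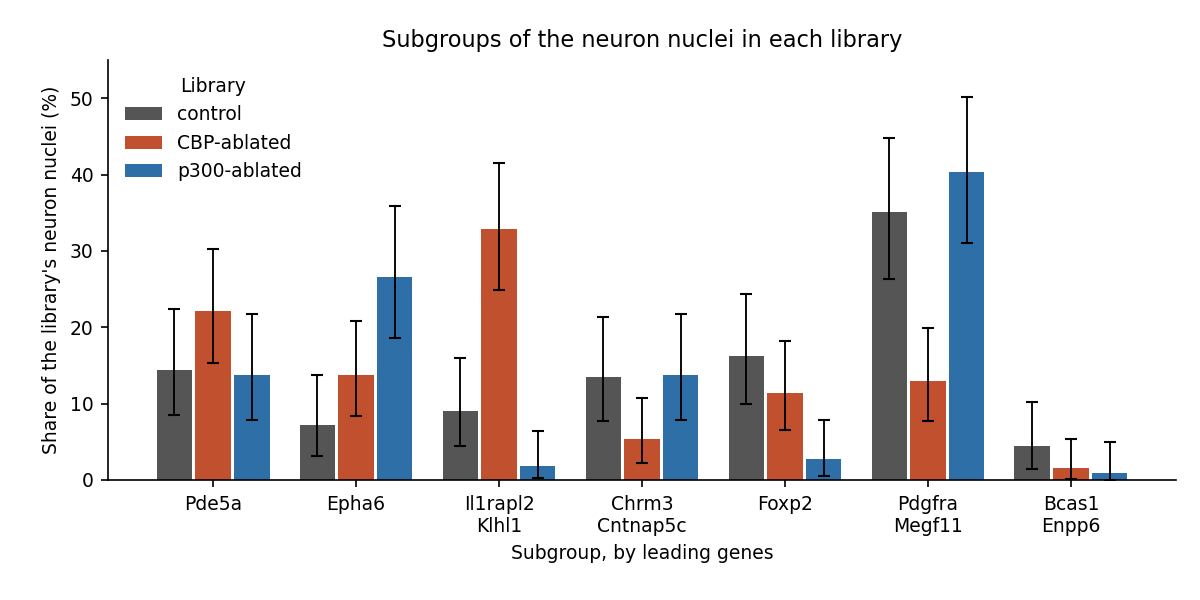
Share of each library's neuron nuclei in each of the 7 subgroups, in percent (bars from 0), with Clopper-Pearson 95% intervals for counting error. The Il1rapl2-Klhl1 subgroup holds 32.8% of the CBP-ablated neuron nuclei and 1.83% of the p300-ablated ones, and the Pdgfra-Megf11 subgroup holds 13.0% of the CBP-ablated ones against 35.1% of control.

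Within neuron nuclei, UMIs were summed per library and compared with the same control library, so the comparisons of the CBP-ablated and of the p300-ablated library are not independent. Of 3117 genes with at least 50 UMIs, 2.25% were at least 2-fold higher and 4.2% at least 2-fold lower in the CBP-ablated library, and of 2959 genes 1.45% were higher and 2.5% lower in the p300-ablated library. Among nuclei with 5 or more UMIs of the rule genes, 52 of 1661 genes were higher and 66 lower in the CBP-ablated library. In the p300-ablated library 61 of 1312 were then higher and 58 lower, so lower genes no longer outnumbered higher ones. Outside the glial-led subgroups the shares were 2.59% and 2.41% of 2198 genes in the CBP-ablated library, and 2.28% and 2.47% of 1580 genes in the p300-ablated library. A 2-fold difference is a size, not a test, and these shares are what a single library pair of this depth gave over all genes.

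Over all lists of neuronal and GABAergic genes, the shares past 2-fold in all neuron nuclei were 1.52% to 4.29%. Over 291 list genes, 140 could be measured in the CBP-ablated comparison, and 6 (4.29%) were 2-fold higher and 5 (3.57%) lower. In the p300-ablated comparison 132 could be measured, with 2 (1.52%) higher and 5 (3.79%) lower. Outside the glial-led subgroups 5 of 128 genes (3.91%) were higher and 4 (3.1%) lower in the CBP-ablated comparison, beside 2.59% and 2.41% over all genes. In the p300-ablated comparison 4 of 113 (3.54%) were higher and 1 (0.88%) lower there, beside 2.28% and 2.47% over all genes. The 4 lower CBP-ablated genes there were Foxp2, Homer1, Kcnip4 and Rbfox3, and Rbfox3 is a gene of the rule, so its call is a description. No member of the GABA synthesis and release list or of the Dlx network list passed 2-fold in either comparison. Genes of the rule, whose values chose the nuclei, were kept in these counts and in the list medians below. They are Gad2 in the GABA list, Dlx6os1 in the Dlx network list and Dcx in the immature neuron list. Rbfox3 is in the mature neuron and the splicing factor lists. The median log2 ratio of the 10 measured Dlx network genes was 0.45 in the CBP-ablated library and 0.04 outside the glial-led subgroups, beside 0.06 and 0.04 over all genes. For the 9 measured presynaptic vesicle release genes it was 0.48 and 0.21, and for the 11 sodium and calcium channels 0.54 and 0.21. The p300-ablated medians of these lists were −0.14, 0.29 and 0.24 in all neuron nuclei and 0.01, 0.19 and 0.29 outside the glial-led subgroups, where 7, 5 and 11 genes could be measured, beside 0.00 and 0.03 over all genes. The immature neuron genes had medians of 0.27 and −0.41 in the CBP-ablated and the p300-ablated library, and 0.00 and −0.28 outside those subgroups. The olfactory bulb interneuron markers had medians of 0.05 over 8 genes and −0.37 over 7, with 5 of the 7 below 0, and −0.13 and −0.21 outside those subgroups.

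Of 140 measured list members 6 (4.29%) were 2-fold higher and 5 (3.57%) lower in the CBP-ablated library, beside 2.25% and 4.2% over all genes. The axon guidance list had 2 higher and 2 lower of 16. Outside the glial-led subgroups it had 1 higher and 0 lower of 14, beside 2.59% and 2.41% over all genes there. The potassium channels had 1 higher and 1 lower of 17. In the CBP-ablated library the adhesion protein Cntn5 had a log2 ratio of 1.43 (1.14 to 1.74) and the transcription factor Foxp1 1.04 (0.40 to 1.72). Outside the glial-led subgroups Cntn5 had 0.72 (0.42 to 1.04) and Foxp1 0.39 (−0.34 to 1.17), and the interval of Foxp1 included 0 there. On the lower side stood the potassium channel Kcnq3 at −1.69 (−2.43 to −1.0), the NMDA receptor subunit Grin3a at −1.39 (−1.88 to −0.91), the guidance receptor Nrp1 at −2.0 (−3.07 to −1.05) and the guidance cue Ntn1 at −1.26 (−1.97 to −0.58). Grin3a had −0.66 (−1.49 to 0.17) outside the glial-led subgroups. The others fell short of 50 UMIs there, with Kcnq3 at −1.50 (−2.60 to −0.44), Ntn1 at −0.47 (−2.01 to 1.16), and Nrp1 at 32 control and 7 CBP-ablated UMIs.

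In the p300-ablated library 2 of 132 list members (1.52%) were 2-fold higher and 5 (3.79%) lower, beside 1.45% and 2.5% over all genes. Of 17 measured axon guidance and migration genes 1 was higher and 2 were lower. Outside the glial-led subgroups 1 of 14 was higher and 0 were lower, beside 2.28% and 2.47% over all genes there. Values of lower members in all neuron nuclei follow. Nrp1 had −1.91 (−2.98 to −0.96), the transcription factor Ebf1 −1.90 (−2.92 to −0.98), the RNA-binding protein Elavl2 −1.46 (−2.40 to −0.59) and the guidance cue Slit1 −1.44 (−2.42 to −0.54), each on few UMIs (13 of Ebf1 and 12 of Nrp1 in the p300-ablated library). The p300-ablated nuclei outside the glial-led subgroups held 6 UMIs of Nrp1, 6 of Ebf1, 9 of Elavl2 and 15 of Slit1, against 32, 33, 27 and 28 in control. A further setting gave every neuronal subgroup with at least 7 nuclei in both libraries equal weight, which left the Il1rapl2-Klhl1 and Foxp2 subgroups out of the p300-ablated comparison and none out of the CBP-ablated one. Nrp1 then had 0.11 in the p300-ablated library and −2.14 in the CBP-ablated library, so its p300-ablated direction turned, and Ebf1 had −3.25 in the p300-ablated library. Ebf1 had 1.13 in all other nuclei of that library. The sodium channel Scn2a had 0.90 (0.26 to 1.57) in all neuron nuclei and 1.75 (0.85 to 2.76) outside the glial-led subgroups, beside 0.54 and 1.01 in the CBP-ablated library. Of the identity genes, Adarb2 had 0.17 (0.09 to 0.24) and −0.50 (−0.59 to −0.41) in the CBP-ablated and the p300-ablated library, and Meis2 0.44 (0.34 to 0.54) and −0.47 (−0.59 to −0.35). Outside the glial-led subgroups Adarb2 had −0.30 and −0.40 and Meis2 −0.03 and −0.32, so the CBP-ablated direction of Adarb2 turned with the make-up of the nuclei. Gad1 had 0.53 (0.03 to 1.03) and 0.36 (−0.15 to 0.89), and −0.09 and 0.35 outside those subgroups, and with subgroups of equal weight both were negative, at −0.32 and −0.34. Rbfox3, a gene of the rule and so given as a description, had −0.59 (−0.92 to −0.27) and −0.45 (−0.78 to −0.13), and −1.10 (−1.46 to −0.74) and −0.61 (−0.99 to −0.23) outside those subgroups. Equal weight gave it −1.0 and 0.044.

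Snhg11, a long noncoding RNA of neurons (chromosome 2 from 158375638 to 158386145), had the largest ratio in the CBP-ablated library and the second largest in the p300-ablated library. It stood at 33.8 CPM in control (18.5 to 56.8, 14 UMIs in 10 of 111 nuclei), 286 CPM in the CBP-ablated library (240.5 to 338, 139 UMIs in 46 of 131) and 167 CPM in the p300-ablated library (131 to 208, 76 UMIs in 26 of 109). Control was the low library, and its interval did not overlap the others. The log2 ratio was 3.08 (2.28 to 3.99) and 2.30 (1.46 to 3.24), and outside the glial-led subgroups 2.65 (1.77 to 3.69) and 2.52 (1.59 to 3.58). In all other nuclei of the same libraries it was −0.17 (−0.40 to 0.05) and −0.09 (−0.29 to 0.11). The Pde5a subgroup held 24 CBP-ablated, 10 p300-ablated and 0 control UMIs of Snhg11, and the Chrm3-Cntnap5c subgroup 45, 51 and 3. In the Il1rapl2-Klhl1 subgroup, with 46 CBP-ablated and 6 control UMIs, the log2 ratio was 0.67 (−0.56 to 2.19). With subgroups of equal weight the ratios were 3.01 and 4.03. Inside the Pdgfra-Megf11 subgroup, where all libraries together held 8 UMIs of Snhg11, the CBP-ablated ratio turned negative.

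Hs6st3, which adds sulfate to heparan sulfate chains (chromosome 14 from 119138341 to 119869815), took the same order. It stood at 126 CPM in control (93.9 to 165, 52 UMIs), 549 CPM in the CBP-ablated library (486 to 619, 267 UMIs) and 456 CPM in the p300-ablated library (396 to 522, 208 UMIs), although 1 nucleus gave 31.7% of the p300-ablated UMIs. The log2 ratio was 2.13 (1.69 to 2.59) and 1.86 (1.41 to 2.33), and 1.65 and 1.92 outside the glial-led subgroups, beside 0.38 and 0.64 in all other nuclei. In the Pde5a subgroup it was 0.03 (−0.84 to 0.94) and −0.11 (−1.18 to 0.94), so the difference was not seen in every subgroup. The related sulfotransferase Hs3st4 had log2 ratios of 1.65 (1.11 to 2.21) and 1.96 (1.44 to 2.52), and 0.97 and 1.97 outside the glial-led subgroups. The neuronal long noncoding RNA Rmst had 2.19 (1.41 to 3.06) and 1.03 (0.14 to 1.98), and 1.74 (0.89 to 2.71) and 1.19 (0.24 to 2.24) outside the glial-led subgroups. Inside the Pdgfra-Megf11 subgroup the p300-ablated ratios of Hs3st4 and Rmst turned negative, where all libraries together held 4 and 5 UMIs of them.

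Other large ratios varied with the subgroups compared, rested on few nuclei or were also found in other nuclei. Epha6 had log2 ratios of 1.71 (1.53 to 1.89) and 1.19 (1.00 to 1.38), 1.07 and 1.23 outside the glial-led subgroups, and inside the Epha6 subgroup 0.87 (0.57 to 1.17) and 0.40 (0.11 to 0.70), whereas inside the Foxp2 subgroup the CBP-ablated ratio was 3.1 (2.42 to 3.84). Klhl1, an actin-binding protein, had 1.85 (1.30 to 2.43) in the CBP-ablated library, 1.40 outside the glial-led subgroups and 0.87 with subgroups of equal weight. Grin2a had 1.73 (0.96 to 2.56) and 1.97 (1.22 to 2.80), with UMIs in 9 control, 16 CBP-ablated and 17 p300-ablated nuclei, and 1 nucleus gave 34.3% of its CBP-ablated and 39.7% of its p300-ablated UMIs. Its ratios outside the glial-led subgroups were 0.97 and 1.89, and among nuclei with 5 or more UMIs of the rule genes they were 0.95 and −0.10, so the p300-ablated direction turned. Foxp2 had −1.37 (−1.77 to −0.98) in the CBP-ablated library and −1.91 (−2.35 to −1.49) outside the glial-led subgroups. It had −0.50 (−0.83 to −0.17) in the p300-ablated library, where 1 nucleus gave 37.5% of its UMIs. Spag5, a spindle protein, had 1.82 (1.19 to 2.50) and 1.20 (0.53 to 1.92), and it had 1.55 and 0.98 outside the glial-led subgroups, 1.63 and 1.06 with subgroups of equal weight and 1.26 and 0.99 in all other nuclei, so this difference was not confined to neuron nuclei.

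In the p300-ablated library 2 genes of neuronal adhesion and wiring, Il1rapl2 and Ntng1, were among the 10 smallest ratios. Il1rapl2 stood at 319 CPM in control (267 to 378, 132 UMIs), 659 CPM in the CBP-ablated library (588 to 735, 320 UMIs) and 65.7 CPM in the p300-ablated library (44.3 to 93.8, 30 UMIs). The 3 intervals did not overlap, and p300-ablated was the low library. The log2 ratios were 1.05 (0.75 to 1.35) and −2.28 (−2.90 to −1.70), and 0.59 (0.26 to 0.92) and −2.45 (−3.18 to −1.77) outside the glial-led subgroups. With subgroups of equal weight the CBP-ablated ratio was 0.15. The p300-ablated ratio was also negative inside the Epha6 subgroup, at −3.28 (−5.16 to −1.64) on 5 against 11 UMIs, and inside the Chrm3-Cntnap5c subgroup, at −1.78 (−2.89 to −0.77) on 12 against 29, and with subgroups of equal weight it was −1.92. Ntng1, a netrin-family cell surface protein, stood at 164 CPM (128 to 208), 111 CPM (83.5 to 145) and 28.5 CPM (15.2 to 48.7). Its CBP-ablated log2 ratio was −0.56 (−1.11 to −0.03), −0.62 outside the glial-led subgroups and −1.04 with subgroups of equal weight, so its level was below control in both libraries. The p300-ablated log2 ratio was −2.53 (−3.51 to −1.66), −2.26 outside the glial-led subgroups and −3.12 with subgroups of equal weight, beside 0.02 in all other nuclei. Both genes were thus low in the p300-ablated neuron nuclei and not in the rest of that library, where Il1rapl2 had 0.05. Kcnip4, a potassium channel partner, had −1.59 (−1.94 to −1.24) in the p300-ablated library, −0.29 (−0.55 to −0.03) in the CBP-ablated library, and −1.80 and −1.75 in all other nuclei of these libraries. Its p300-ablated and CBP-ablated ratios outside the glial-led subgroups were −1.82 (−2.20 to −1.45) and −1.05 (−1.32 to −0.79). Zfp804a, a zinc finger gene of the Foxp2 subgroup, had −1.53 (−2.28 to −0.83) in the p300-ablated library and −2.49 (−3.63 to −1.49) outside the glial-led subgroups.

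**Figure D4:**
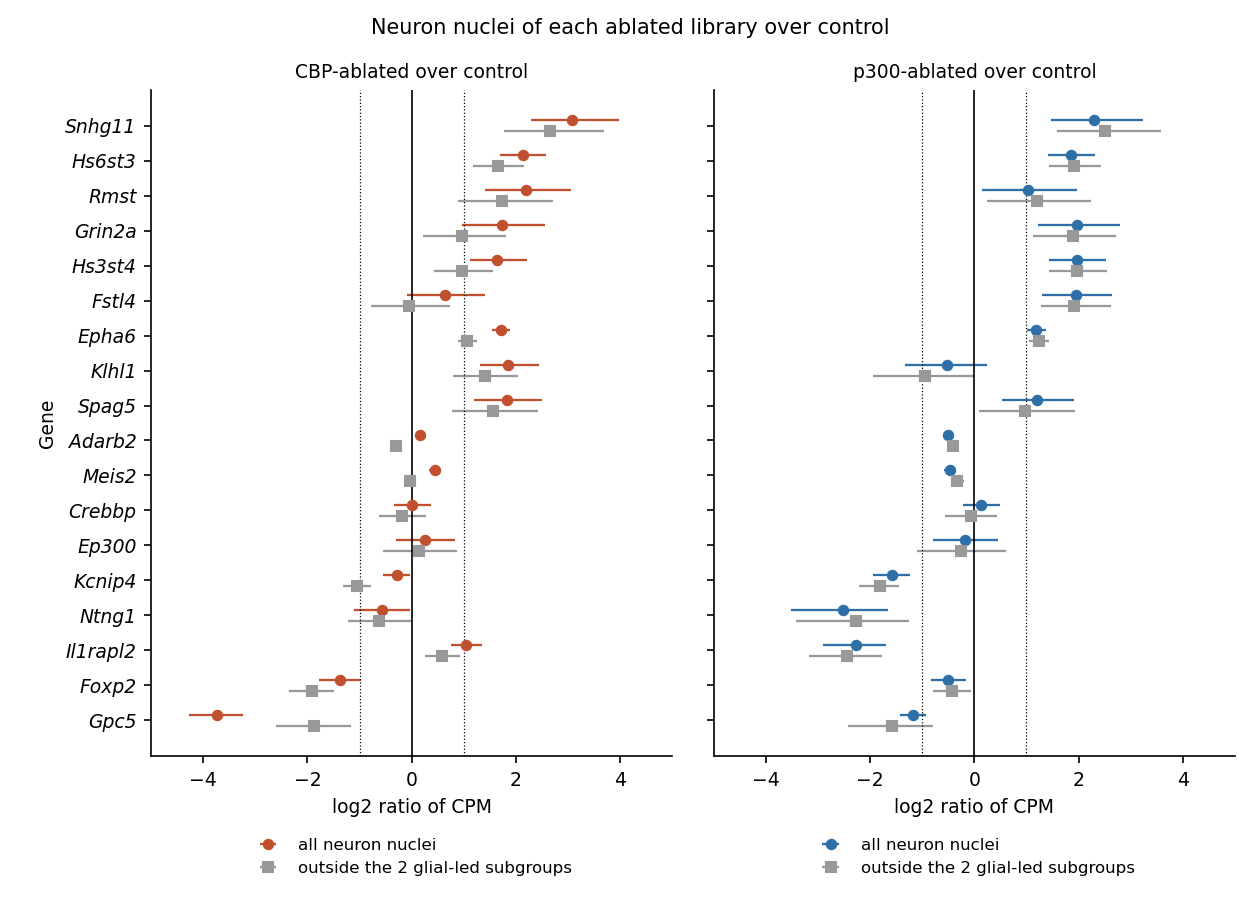
Log2 ratio of CPM over the shared control library for 18 genes in the CBP-ablated (left) and p300-ablated (right) neuron nuclei, with conditional binomial 95% intervals for counting error; dotted lines mark 2-fold, circles all neuron nuclei and grey squares those outside the 2 glial-led subgroups. Snhg11 and Hs6st3 lie past 2-fold in both libraries, Il1rapl2 and Ntng1 lie below −2 in the p300-ablated library, and Crebbp and Ep300 lie near 0.

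Glial RNA in the neuron nuclei differed between libraries. The 8 astrocyte markers summed to 1837 CPM in control, 572 CPM in the CBP-ablated and 971 CPM in the p300-ablated neuron nuclei, and to 860, 608 and 604 CPM outside the glial-led subgroups, with Apoe the most abundant per kb. The 8 oligodendrocyte precursor markers summed to 6502, 2786 and 8534 CPM, and to 704, 854 and 995 CPM outside those subgroups. The 8 oligodendrocyte markers summed to 749, 514 and 383 CPM, and outside those subgroups to 121, 240.4 and 111 CPM, where the CBP-ablated library was the highest. Gpc5, a glypican of astrocytes, stood at 962 CPM in control, 72.0 CPM in the CBP-ablated and 427 CPM in the p300-ablated library, with log2 ratios of −3.74 (−4.28 to −3.24) and −1.17 (−1.43 to −0.92), beside −3.47 and −1.37 in all other nuclei. The glutamate transporter Slc1a2 had −3.78 (−5.27 to −2.58) and −1.18 (−1.82 to −0.57), beside −2.11 and −0.96. Egfr, a growth factor receptor of transit-amplifying precursors, stood at 254, 35.0 and 26.3 CPM, with −2.86 (−3.69 to −2.11) and −3.27 (−4.27 to −2.41), beside −2.0 and −1.71. Gpc5 outside the glial-led subgroups had −1.87 (−2.61 to −1.17) and −1.59 (−2.43 to −0.80), while Slc1a2 had 23, 5 and 14 UMIs and Egfr 9, 7 and 6 UMIs in control, the CBP-ablated and the p300-ablated library. With subgroups of equal weight Gpc5 had −1.83 and −1.89, Slc1a2 −2.70 and 1.15, and Egfr −1.34 and −0.034. The p300-ablated direction of Slc1a2 thus turned, and most UMIs of Egfr in control neuron nuclei lay in the glial-led subgroups. The part of free RNA from glial cells in these genes was not tested. Microglial markers summed to 55.6, 24.7 and 19.7 CPM, with none at 20 UMIs, and endothelial or mural markers to at most 12.1 CPM. Scrublet called 11 control, 4 CBP-ablated and 6 p300-ablated neuron nuclei as doublets.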

How the data were processed

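The authors aligned 10x Genomics reads of nuclei to GRCm38 with Cell Ranger 3.1, counted UMIs over exons and introns, and deposited these counts per nucleus for 30559 genes, not normalized. Totals were 16312170 (control), 12748336 (CBP-ablated) and 18876682 UMIs (p300-ablated), and 413723, 485948 and 456414 UMIs in the neuron nuclei. Libraries were assigned by their genotype labels. Neuron nuclei were taken by the stated UMI limits, scaled to 10000 UMIs, log-transformed and clustered (1000 variable genes, 15 components, 15 neighbours, Leiden resolution 0.6, seed 1) with scanpy 1.11.5. Subgroups were named after their values were seen. Doublets were called with Scrublet at 0.8% for each 1000 nuclei. UMIs were summed per library, divided by the total to give CPM, and compared as log2 ratios without a pseudocount, for genes that had 50 or more UMIs over both libraries. For a count of 0 the limit was 3 UMIs. Other gates were at least 4 UMIs of Pdgfra, Cspg4 and Megf11 (oligodendrocyte precursor), of Kcnj6 and Nell2, and of the oligodendrocyte genes, and at least 3 of the microglial genes. Members and lists were chosen with earlier results of these data known. Named genes were those of the rule and marker lists, the 20 largest ratios over other nuclei, list members past 2-fold or of highest level, the 10 largest and 10 smallest ratios, Crebbp and Ep300, and leading genes of subgroups; some genes this covers are not reported here. Coordinates and gene spans came from GENCODE M21. Python 3.11.15 was used with pandas 2.3.3, scipy 1.17.1 and numpy 2.4.6. The intervals were tested on simulated data, but the outcome is not reported here and no result rests on it.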

Additional observations from a re-analysis of the deposited data

How the results depend on the processing

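No paired analysis was possible because each condition had 1 library. With neuron nuclei this few, counts of genes past 2-fold and list medians covered only genes with 50 or more UMIs, ratios given on fewer have wide intervals, and no alternative replaces missing cultures. Without the glial-led subgroups and with subgroups of equal weight were settings chosen after seeing the data. Equal weight left the Il1rapl2-Klhl1 and Foxp2 subgroups, with fewer than 7 p300-ablated nuclei, out of that comparison. List medians here are over genes with 50 UMIs in all neuron nuclei, whereas the medians given earlier outside the glial-led subgroups are over genes with 50 UMIs there. The share stayed highest in the CBP-ablated library in all of the settings run, and in the order control, CBP-ablated and p300-ablated it was 4.46%, 6.63% and 5.01% at 2 or more UMIs, 0.86%, 2.49% and 1.08% at 5 or more, 0.884%, 1.64% and 0.709% after thinning, with a CBP-ablated difference of 0.758 points, 1.27%, 3.02% and 1.40% without Dcx, 1.74%, 3.94% and 1.61% without nuclei holding precursor markers, 2.90%, 4.40% and 2.46% outside the astrocyte gate, and 1.37%, 3.71% and 1.38% without the glial-led subgroups.

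The number of CBP-ablated genes 2-fold lower was 131 of 3117 measured as reported, 66 of 1661 at 5 or more UMIs, 75 of 2627 without nuclei holding precursor markers, 212 of 3117 after subtraction of 10% free RNA, 46 of 782 in the largest subgroup alone and 53 of 2198 without the glial-led subgroups, and 25 genes were higher in the largest subgroup. For the p300-ablated library it was 74 of 2959, and 46 of 2643 without called doublets, 44 of 1339 in the largest subgroup and 39 of 1580 without the glial-led subgroups, a share of 2.47% beside 2.5%. A resolution of 0.3 gave 4 subgroups in place of 7.

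The CBP-ablated median log2 ratio of the Dlx network list, 0.45, was 0.27 as a mean over nuclei, 0.21 at 5 or more UMIs, 0.21 without nuclei holding precursor markers, −0.033 in the largest subgroup, 0.044 without the glial-led subgroups and −0.11 with subgroups of equal weight. The striatal list was −0.30 and −0.82 in the last 2 of these settings, the axon guidance list −0.23 without the glial-led subgroups, the potassium channels 0.29 at 5 or more UMIs and −0.33 in the largest subgroup, and the GABA-A subunits −0.77 there. In the p300-ablated library the largest subgroup gave −0.43 for the GABA list, −0.82 for the Dlx network list, −0.82 for the olfactory bulb list, −0.22 for the mature neuron list and −0.65 for the GABA-A subunits, which had 0.39 without the glial-led subgroups. The olfactory bulb list was −0.24 as a mean over nuclei, −0.28 at 5 or more UMIs, −0.058 without the glial-led subgroups and −0.058 with equal weight, and the sodium and calcium channels 0.47 at 5 or more UMIs.

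Some genes past 2-fold changed sign. In the CBP-ablated library Cnksr3 had 0.014 without the glial-led subgroups and 0.28 with equal weight, Phka1 0.26 with equal weight, and in the largest subgroup Nrp1 had 0.47 and Snhg11 −0.27. In the p300-ablated library Cnksr3 had 0.043 in the largest subgroup and 0.056 with equal weight, Nrp1 0.11 and Slc1a2 1.15 with equal weight, Fstl4 −0.28, Grin2a −0.10 and Neat1 −0.081 at 5 or more UMIs, and Hs3st4 −0.37, Iqsec1 0.088 and Rmst −0.96 in the largest subgroup. The largest subgroup is the Pdgfra-Megf11 one. Beside these 15 values, 441 values of named genes stayed within the interval first given and 145 moved outside it. The cause of these moves was not tested.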

Other observations

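Single nuclei of mice of either sex can be told apart by Xist, the RNA of the inactive X chromosome, and by the Y-linked genes Ddx3y, Kdm5d, Uty and Eif2s3y. In the order control, CBP-ablated and p300-ablated, Xist was found in 76.6%, 72.5% and 58.7% of neuron nuclei, and a Y-linked UMI in 20.7%, 29.8% and 38.5%. In the other nuclei of the same libraries the values were 59.0%, 76.7% and 63.1% for Xist and 35.6%, 27.9% and 39.1% for the Y-linked genes. Of the 43 CBP-ablated nuclei of the Il1rapl2-Klhl1 subgroup 16 held Xist alone, 17 Y-linked UMIs alone, 6 both and 4 neither. Of the 18 control nuclei of the Foxp2 subgroup 16 held Xist alone and 2 held both. Free RNA and doublets can give both kinds to a nucleus, and their part was not tested.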
